A study of Mus musculus with 9 samples.

Results

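Tgif1 null and wild type mouse embryo fibroblasts (MEFs) were set against each other at the same passage, passage 3 (P3), as 3 arrays of each genotype. All 18238 of 45101 probe-sets with a log2 signal above 4 on at least 3 of these 6 arrays are described, and 16598 of them were matched to a single gene, 9938 genes in all. A probe-set is the group of short probes on the array that read 1 transcript or a part of it, and 17583 of the 18238 were above 4 on all 6 arrays. The threshold cuts through a continuous range: the third-highest of the 6 signals, which decides membership, was 4.001, 4.001 and 4.002 for the nearest inside it and 3.998, 3.997 and 3.997 for the nearest outside it. Hexdc, just inside, had means of 4.05 in the null and 4.09 in wild type P3, and Ubr7, just outside, had means of 4.11 and 3.92. Probe-sets that entered through 1 genotype alone, 46 through the 3 null arrays and 36 through the 3 wild type arrays, had to differ between the groups, so counts of this kind are read over all genes on the array as well.

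The cells were primary fibroblasts from embryos of 13.5 days, of a mixed C57BL/6J x 129Sv/J strain background, grown on a 3T3 protocol in DMEM with 10% fetal bovine serum. The null cultures were labelled Tgif1 null and the others wild type, and both were at P3. The 3 remaining arrays, of wild type MEFs at passage 5 (P5), served to estimate the spread, and their level is given beside the difference. For some named genes that level was also tested against the null in the same fit. No null cultures at P5 were on these arrays. Each array holds RNA of 1 culture, and the paper calls the cultures of a group independent, so a p-value here reflects how far such cultures scatter. Whether the cultures of a genotype came from different embryos is not stated in the sources used here. A p-value therefore need not reflect scatter between embryos. The sources used here give no date or batch for the arrays, so no batch was tested, and the small number of arrays limits the precision. The comparison addresses which transcripts differ between Tgif1 null and wild type cultures at an early passage. Whether the genotypes also differed in C57BL/6J or 129Sv/J alleles of other genes was not tested. A difference described here therefore need not come from the loss of Tgif1.

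Tgif1 encodes a homeodomain protein of the TALE superclass that represses transcription. It binds DNA at a short TGTCA-containing site, recruits corepressors such as CtBP and histone deacetylases, and limits the response to transforming growth factor beta (TGFβ) by binding Smad2 and Smad3. It also acts on the retinoic acid response through retinoid X receptors. Primary MEFs divide for a limited number of passages and then cease dividing, a state called senescence, in which replication and mitosis genes are low.

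Tgif1 was measured by 1 named probe-set, with log2 signals of 2.48, 3.21 and 2.50 on the 3 null arrays and of 9.82, 9.95 and 9.72 on the 3 wild type P3 arrays. The null arrays were thus near 2.23, the lowest value that any array gives, and all wild type arrays far above it. The difference of -7.10 (SE 0.20, adjusted p = 0.000116) is the largest in the comparison, and it kept its call in 17 of 17 alternative settings. The signal thus separated the null from the wild type P3 arrays as they are labelled. Where the probes for Tgif1 lie relative to the deleted part of the gene is not known here. Fibroblast markers were present in both genotypes, with 22 of 24 above 4 on every array of each group. Vim, the intermediate filament of mesenchymal cells, was at 15.23, 15.24 and 15.18 on the null arrays and at 15.12, 15.24 and 15.15 on the wild type arrays. Across the 18238 probe-sets, arrays correlated at 0.987 to 0.996 within the null, at 0.990 to 0.997 within wild type P3 and at 0.978 to 0.990 between the groups. These ranges overlap: null replicate 1 correlated at 0.987 with null replicate 3 and at 0.988 with wild type P3 replicate 3.

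In the fit of the 3 group means to all 9 arrays, 393 of the 18238 probe-sets rose in the null (2.15%) and 292 fell (1.60%) at an adjusted p under 0.05, and 17553 did not pass. Rose and fell are used below only for this test, limma's moderated test of the null against wild type P3, with Benjamini-Hochberg adjustment across the 45101 probe-sets. Most changes were small. Of those that rose, 83 did so by at least 1 on the log2 scale, which is 2-fold, and 150 by under 0.5, with a median of 0.61. Of those that fell, 52 did so by at least 1 and 127 by under 0.5, with a median of -0.55. Among those above 4 on all 6 arrays, 369 rose and 273 fell, while 21 of the risers had entered through the null arrays alone and 14 of the fallers through the wild type arrays alone. The median difference over all 18238 was 0.00. The 3 arrays of a genotype lay all above or all below those of the other for 4491 probe-sets (24.6%), and for all 685 that passed the test. An unadjusted p under 0.05 was given for 4192.

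**Figure D1:**
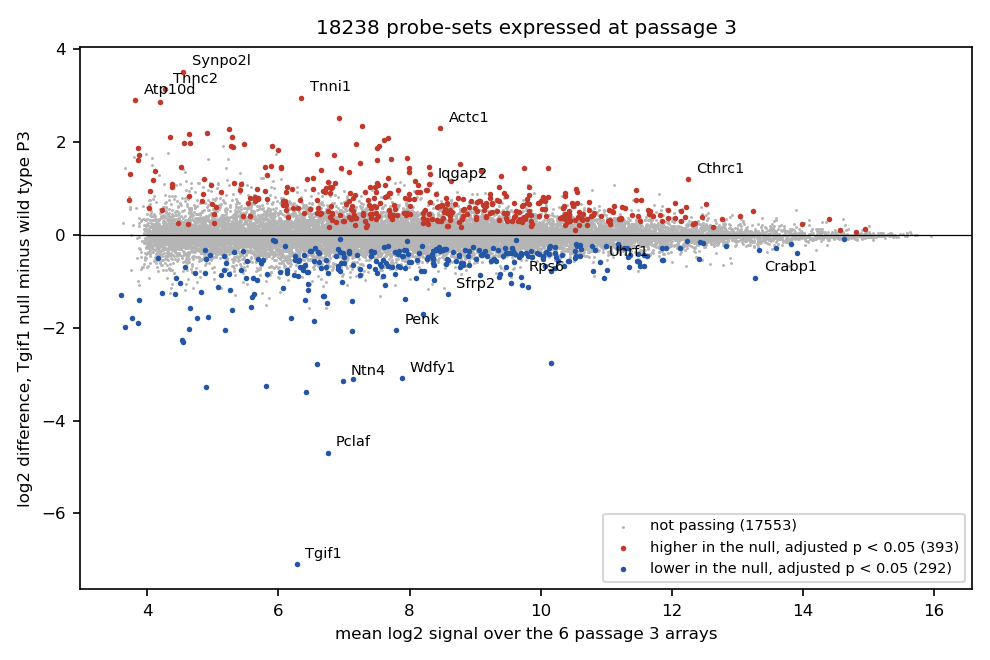
Each point is 1 of the 18238 probe-sets, with its mean log2 signal over the 6 P3 arrays on the horizontal axis and the log2 difference of the null from wild type P3 on the vertical axis. Red points rose (393), blue points fell (292), and grey points did not pass the test; Tgif1 lies lowest, at -7.10, and most called points lie within 1 of the zero line.

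The number of calls depended strongly on single arrays and on how the spread was estimated. Without wild type P3 replicate 1, 117 rose and 88 fell, without null replicate 2, 160 rose and 117 fell, and without wild type P3 replicate 3, 181 rose and 127 fell. Without wild type P5 replicates 1 and 2, which enter only through the spread, 196 and 197 rose and 140 and 148 fell. Fitted on the 6 P3 arrays alone, 75 rose and 42 fell, and with a robust prior that varies with the signal 34 rose and 23 fell. The prior used otherwise had 0.345 degrees of freedom against 6 from the arrays, and so borrowed little between probe-sets. A core of 29 probe-sets passed in every fit they entered, 16 higher and 13 lower in the null, among them Tgif1, Pclaf, Ntn4, Wdfy1, Penk, Crabp1 and Rps6 on the lower side and Atp10d, Adamts3, Coch, Iqgap2, Jph2 and Tgm2 on the higher side. These names come from that core and were chosen after their values were seen, and for the genes described below the number of alternative settings that kept the call is given where it matters.

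The largest decreases after Tgif1 belonged to genes of unlike function. Wdfy1, a protein of early endosomes that binds a phosphoinositide lipid, was at 4.39, 4.25 and 5.52 on the null arrays and at 8.16, 8.12 and 8.07 on the wild type P3 arrays by the probe-set with the largest change, and fell by 3.39 (SE 0.32, adjusted p = 0.0103). A further 2 of its 4 probe-sets fell by 3.10 and 3.08, and the last, the dimmest in wild type, differed by -0.48 (adjusted p = 0.0623). Tmem87a, a membrane protein of the Golgi, was at 3.89, 4.84 and 3.84 in the null and at 7.36, 7.65 and 7.33 in wild type P3 and fell by 3.25 (SE 0.28, adjusted p = 0.00735). Sema5a, a semaphorin that guides axons and cell contacts, was at 4.70, 4.99 and 5.92 in the null and at 7.94, 7.88 and 8.11 in wild type P3 and fell by 2.77 (SE 0.31, adjusted p = 0.0151), a call kept in 11 of 17 alternative settings. The P5 mean was 7.25 ± 0.14 for Tmem87a and 8.02 ± 0.17 for Sema5a, with P5 and P3 arrays overlapping in both, while the P5 arrays of Wdfy1, at 8.39 ± 0.02, lay above its P3 arrays.

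Others among the 15 largest decreases had P5 levels unlike those at P3. Nptx1, a pentraxin of synapses, was at 2.77, 3.72 and 3.68 on the null arrays and at 5.50, 5.62 and 5.99 on the wild type P3 arrays, and fell by 2.32 (SE 0.29, adjusted p = 0.0222). Its level at P5, 3.59 ± 0.22, did not pass the test against the null (adjusted p = 0.967), in a comparison in which 16.6% of the 18238 probe-sets passed and which shares the null arrays with the first. The urea transporter Slc14a1 fell by 1.85 (SE 0.26, adjusted p = 0.0293), from 7.32, 7.79 and 7.31 to 5.25, 5.56 and 6.05. The secreted protease inhibitor Wfdc2 fell by 1.79 (SE 0.27, adjusted p = 0.0359), from 6.00, 5.22 and 5.75 to 4.02, 4.20 and 3.40. Their P5 means of 6.03 and 4.35 did not pass against the null either (adjusted p = 0.592 and 0.501). In the other direction, the water channel Aqp1, the enkephalin precursor Penk and the neutrophil chemokine Cxcl5 were lowest in the null and highest at P5. Cxcl5 was at 6.86, 7.66 and 7.54 in the null, at 9.01, 9.30 and 8.89 in wild type P3 and at 10.35 ± 0.16 in wild type P5, and fell by 1.71 against P3 (SE 0.23, adjusted p = 0.027). Rims2, which tethers vesicles at release sites, fell by 2.26 (SE 0.18, adjusted p = 0.00565), from 5.67, 5.43 and 5.87 to 3.71, 3.16 and 3.30. Of the 6 P3 arrays, Nptx1 and Rims2, like Ikbip and Dph5 in this ranking, were above 4 on the wild type ones alone. They could enter it only by being lower in the null, and sizes of change near the lowest value have little meaning. The P5 arrays of Nptx1 were below 4 too.

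**Figure D2:**
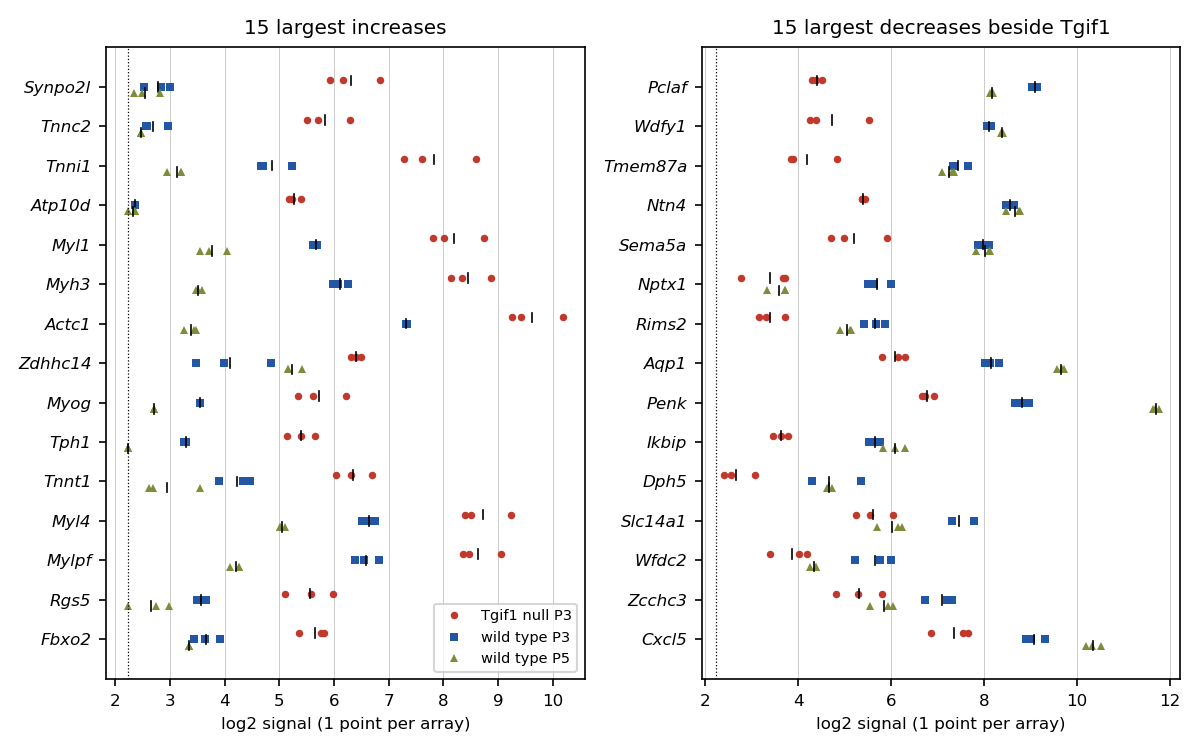
Log2 signals on each of the 9 arrays for the 15 genes with the largest increases (left) and the 15 with the largest decreases beside Tgif1 (right) among probe-sets that passed the test, 1 point per array, with a short black line at each group mean and a dotted line at 2.23, the lowest value of the arrays. The null points lie apart from the wild type P3 points for every gene shown, as the test had selected them, while the wild type P5 points lie with the null for Nptx1, Slc14a1, Wfdc2 and Zcchc3 and far from both for Penk and Actc1.

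Among the 15 largest increases, 9 were muscle genes: Synpo2l, Tnnc2, Tnni1, Myl1, Myh3, Actc1, Tnnt1, Myl4 and Mylpf, which encode an actin-binding protein of striated muscle, troponins, myosin chains and the actin of the embryonic heart, and Myog, the transcription factor of muscle differentiation, stood beside them. Synpo2l, Tnnc2 and Myog, like Atp10d, Tph1, Fbxo2 and Rgs5 in this ranking, were above 4 on the null arrays alone. They could enter it only by being higher in the null, and sizes of change near the lowest value have little meaning. Tnni1, the inhibitory troponin of slow fibres, was at 8.59, 7.29 and 7.62 on the null arrays and at 4.71, 4.67 and 5.23 on the wild type P3 arrays, and rose by 2.96 (SE 0.35, adjusted p = 0.0181). Mylpf, the regulatory light chain of fast fibres, was at 9.05, 8.36 and 8.47 in the null and at 6.55, 6.39 and 6.83 in wild type P3, and rose by 2.04 (SE 0.20, adjusted p = 0.0117). Null replicate 1 was the highest in both. No null array came down to a wild type one, which held for every probe-set that rose. In bulk cultures, more cells of a type and more RNA per cell cannot be told apart. Myog was at 6.21, 5.34 and 5.61 in the null and at 3.54 on each wild type P3 array, and rose by 2.18 (SE 0.21, adjusted p = 0.0103). Myod1 and Pax7, which mark muscle precursors, were at 2.23 on all 6 arrays, the lowest value, and so was Myf5.

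Of the 62 sarcomere genes on the array, 15 rose (24.2%), 0 fell and 47 did not pass, with a median difference of 0.11, and 23 of the 62 were above the threshold of 4. Over all 18194 genes, each read by its brightest probe-set, 274 rose (1.51%) and 195 fell (1.07%) with a median of 0.00. The lists below are counted by that probe-set alone. Of 1509 genes in them, 21 passed only by a dimmer probe-set above the threshold, 14 higher (Asb4, Csf1r, Ddr2, Disp1, Edem1, Egfr, Flt1, Hoxb4, Igf2bp1, Itgav, Mfap5, Polb, Ptgs2 and Vegfc) and 7 lower (Dnmt1, Igfbp4, Ndufv1, Pclaf, Rad51ap1, Rpa1 and Sdc4). Among the 9938 genes that passed the threshold, 267 rose (2.69%) and 190 fell (1.91%) with a median of -0.01. Jph2 couples the surface membrane to the calcium store of muscle cells, and its call was kept in 17 of 17 alternative settings. It was at 8.33, 8.34 and 8.24 in the null and at 7.31, 7.30 and 7.39 in wild type P3, and rose by 0.97 (SE 0.04, adjusted p = 0.000661). The count of 15 was 5 without wild type P3 replicate 1, 1 on the 6 arrays alone and 7 with the robust prior. Of 32 myogenic regulators and precursor genes, 5 rose, 0 fell and 27 did not pass (median 0.00). Dysf, a repair protein of the muscle membrane, rose by 0.98 (SE 0.08, adjusted p = 0.00729), and Chrna1, the acetylcholine receptor subunit of the neuromuscular junction, rose by 0.93 (SE 0.14, adjusted p = 0.0333).

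Because the muscle genes moved together, the 250 bases before the start site of 4 of the largest risers are shown, taken from RefSeq on GRCm38.p6 and written 5′ to 3′ along the gene. Capitals mark matches to CANNTG, the E-box that muscle bHLH factors such as myogenin bind, which reads the same on both strands and covers CAGCTG.
Tnnc2, chr2:164779735-164779984, minus strand: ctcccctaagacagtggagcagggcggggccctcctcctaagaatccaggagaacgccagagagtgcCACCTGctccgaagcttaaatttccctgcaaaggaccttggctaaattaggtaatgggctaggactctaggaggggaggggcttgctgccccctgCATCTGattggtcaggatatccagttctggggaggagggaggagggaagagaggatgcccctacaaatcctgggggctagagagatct
Tnni1, chr1:135799171-135799420, plus strand, the first of 2 listed starts: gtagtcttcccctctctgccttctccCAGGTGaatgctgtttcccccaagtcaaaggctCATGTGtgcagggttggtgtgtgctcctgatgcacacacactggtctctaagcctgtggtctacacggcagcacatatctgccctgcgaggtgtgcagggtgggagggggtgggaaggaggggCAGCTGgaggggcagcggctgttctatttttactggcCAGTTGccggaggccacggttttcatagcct
Myl1, chr1:66945057-66945306, minus strand: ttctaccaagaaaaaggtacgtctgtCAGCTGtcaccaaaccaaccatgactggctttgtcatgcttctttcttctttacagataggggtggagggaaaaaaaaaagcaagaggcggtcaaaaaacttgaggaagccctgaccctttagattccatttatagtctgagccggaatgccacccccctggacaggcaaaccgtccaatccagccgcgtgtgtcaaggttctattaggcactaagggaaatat
Myog, chr1:134289754-134290003, plus strand: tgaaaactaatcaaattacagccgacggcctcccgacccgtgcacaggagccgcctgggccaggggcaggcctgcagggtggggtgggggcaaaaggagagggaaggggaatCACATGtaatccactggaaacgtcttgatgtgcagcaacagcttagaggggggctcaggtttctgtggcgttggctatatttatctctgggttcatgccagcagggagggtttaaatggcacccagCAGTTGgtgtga
The windows hold 2, 4, 1 and 2 matches, and that of Actc1 holds 0. CAGCTG itself lay in 8 of the 17 listed promoters of the sarcomere genes that rose by any probe-set above the threshold (47.1%) and in 13.0% of all 32851 listed promoters. For CANNTG the shares were 88.2% and 66.2%. Over all genes that rose, CAGCTG lay in 55 of 351 promoters (15.7%), and over those that fell in 21 of 245 (8.57%), against 11.4% for genes with a probe-set above the threshold. TGTCA, searched on both strands, lay in 35.3% of the promoters of genes that rose, in 27.8% of those of genes that fell, and in 30.2% of those of all genes above the threshold. Promoters were listed for 262 of the 323 genes that rose and 188 of the 241 that fell. The sets were chosen by their change, and these shares are a description.

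Genes of DNA replication and of mitosis were lower in the null. Of 58 replication genes, all above the threshold, 8 fell (13.8%), 0 rose and 50 did not pass, and of 62 genes of mitosis and the kinetochore 15 fell (24.2%), 0 rose and 47 did not pass. By the same test an unadjusted p under 0.05 was given downward for 38 and 45 of them and upward for 0 and 0. The shift was small and broad: the medians were -0.33 and -0.36, and the difference was below 0 for 57 of the 58 and 58 of the 62, as it was for 51.9% of all genes above the threshold. Averaged over the list, the null arrays were shifted from the wild type P3 mean by -0.30, -0.38 and -0.35 for replication and by -0.44, -0.35 and -0.30 for mitosis. The wild type P3 arrays themselves lay between -0.03 and 0.03 in both lists, so the groups did not overlap in these means.

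Among replication genes, Mcm5, a subunit of the helicase that opens the double helix, was at 11.23, 11.17 and 11.19 on the null arrays and at 11.76, 11.65 and 11.84 on the wild type P3 arrays, and fell by 0.55 (SE 0.05, adjusted p = 0.00821). Uhrf1, which copies DNA methylation to the new strand, was at 10.67, 10.66 and 10.53 in the null and at 11.26, 11.15 and 11.20 in wild type P3 and fell by 0.58 (SE 0.05, adjusted p = 0.00707). Both kept their call in 15 of 17 alternative settings. Lig1, the ligase that joins Okazaki fragments, fell by 0.53 (SE 0.06, adjusted p = 0.0154), and Chaf1b, a histone chaperone of the replication fork, fell by 0.42 (SE 0.05, adjusted p = 0.0156). Rfc5, a subunit of the clamp loader, was at 8.06, 8.04 and 8.06 in the null and at 8.62, 8.91 and 8.55 in wild type P3, and fell by 0.64 (SE 0.09, adjusted p = 0.0296). The replicative polymerase gene Pole fell by 0.60 (SE 0.09, adjusted p = 0.0317), from 7.95, 7.79 and 8.07 to 7.35, 7.29 and 7.38. The clamp itself, Pcna, was at 13.23, 13.10 and 13.05 in the null and at 13.43, 13.39 and 13.35 in wild type P3, a difference of -0.26 (SE 0.05, adjusted p = 0.0708) that did not pass.

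Pclaf, which binds that clamp, was read by a pair of probe-sets that disagreed in size. The first was at 4.39, 4.30 and 4.52 on the null arrays and at 9.13, 9.13 and 9.03 on the wild type P3 arrays and fell by 4.69 (SE 0.06, adjusted p = 5.18e-06), the largest decrease after Tgif1. The second, far brighter, was at 12.04, 11.89 and 11.84 in the null and at 12.39, 12.13 and 12.47 in wild type P3, a difference of -0.41 (SE 0.10, adjusted p = 0.134) close to the median of the replication list.

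Among mitosis genes, Kif23, a kinesin of the central spindle that is needed for cytokinesis, was at 8.51, 8.63 and 8.81 on the null arrays and at 9.51, 9.56 and 9.47 on the wild type P3 arrays, and fell by 0.87 (SE 0.07, adjusted p = 0.00782). Bub1b, a kinase of the spindle checkpoint, was at 7.29, 7.53 and 7.69 in the null and at 8.17, 8.25 and 8.17 in wild type P3 and fell by 0.69 (SE 0.10, adjusted p = 0.029). Plk4, the kinase that starts centriole duplication, was at 10.00, 10.18 and 10.21 in the null and at 10.65, 10.83 and 10.61 in wild type P3 and fell by 0.57 (SE 0.08, adjusted p = 0.0274). For all 3 genes the null arrays lay below every wild type P3 array, and the groups were apart in all 685 probe-sets that passed. Spc25 of the outer kinetochore fell by 0.39 (SE 0.03, adjusted p = 0.00791), Aspm of the spindle pole by 0.60 (SE 0.07, adjusted p = 0.0146), and the checkpoint gene Mad2l1 by 0.47 (SE 0.05, adjusted p = 0.0151). Plk4 and Bub1b kept their call in 7 of 17 alternative settings, Kif23 in 14 and Spc25 in 15. Mki67, the common marker of cycling cells, was at 10.68, 10.83 and 11.10 in the null and at 11.08, 11.40 and 11.19 in wild type P3 and did not pass (adjusted p = 0.594), with null replicate 3 above wild type P3 replicate 1.

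Cyclins, their kinases and their inhibitors were mixed. Of 41 such genes, 2 rose and 4 fell, and the median was -0.10. Ccnb2, a mitotic cyclin, fell by 0.56 (SE 0.06, adjusted p = 0.0123), and Skp2, which marks the inhibitor p27 for destruction, fell by 0.41 (SE 0.06, adjusted p = 0.0266). The other probe-sets of Skp2 differed by -0.28, -0.22 and -0.09 and did not pass. Cdk6, a kinase of G1, rose by 0.34 (SE 0.04, adjusted p = 0.0194). Gas1, a membrane protein first known from growth arrest that also binds Hedgehog, fell by 1.07 (SE 0.15, adjusted p = 0.0299). Transcripts of the inhibitors named here did not pass: Cdkn1a (p21) differed by 0.35 (adjusted p = 0.354), Cdkn2b (p15) by 0.36 (adjusted p = 0.063), Cdkn1b (p27) by -0.04 (adjusted p = 1) and Cdkn2a, which encodes p16 and p19, by -0.05 (adjusted p = 1). Cdkn2a was at 11.66 in wild type P5, against 9.53, 9.68 and 9.80 in the null and 9.77, 9.56 and 9.85 in wild type P3.

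**Figure D3:**
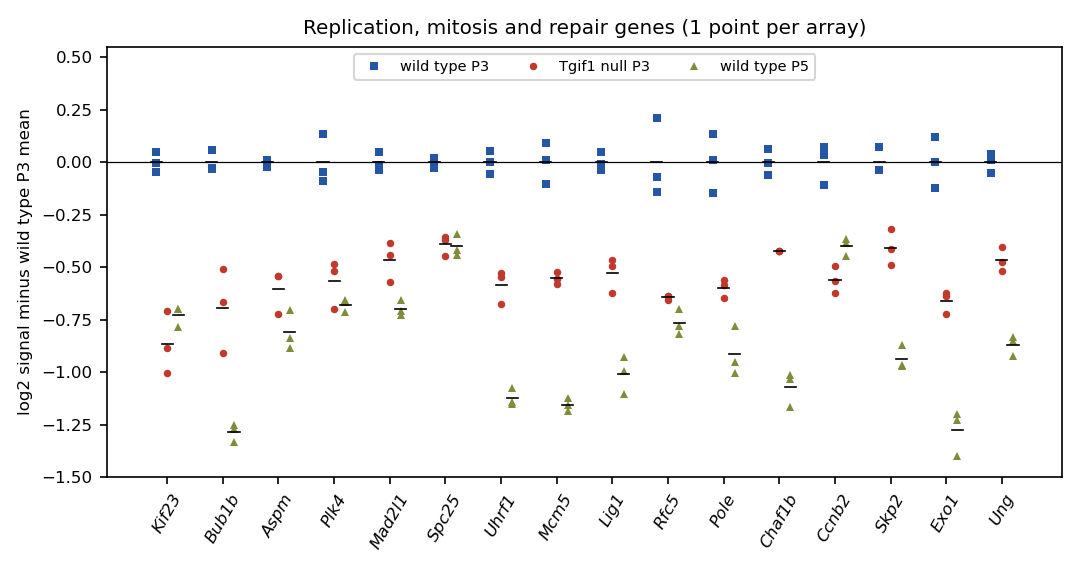
Log2 signal minus the wild type P3 mean of each gene for 16 replication, mitosis, cyclin and repair genes that fell in the null, 1 point per array and a black line at each group mean. The null points lie below every wild type P3 point as the test had selected them, and the wild type P5 points lie further down for Uhrf1, Mcm5, Chaf1b, Skp2, Exo1 and Ung and at a similar depth for Kif23, Plk4 and Spc25.

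At P5, Mcm5 and Uhrf1 of wild type cultures were lower still. Mcm5 had a mean of 10.59 ± 0.03 and Uhrf1 of 10.08 ± 0.04 (SD, n = 3 each), and both passed the test against the null (adjusted p = 0.00161 and 0.00226). For Kif23, Plk4, Spc25 and Rfc5 the P5 level did not pass against the null (adjusted p = 0.482, 0.637, 1 and 0.637), with P5 means of 8.78, 10.02, 9.74 and 7.93.

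The counts in these lists varied with the fit. Without wild type P3 replicate 1, 2 of the 58 replication and 2 of the 62 mitosis genes fell, and on the 6 P3 arrays alone 0 and 1 did. With the robust prior 0 and 0 did, and with only the 18238 probe-sets in the fit 24 and 28.

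DNA repair genes leaned the same way. Of 55, 3 fell, 0 rose and 52 did not pass, with a median of -0.29 and 49 differences below 0. Ung, which removes uracil from DNA, was at 6.84, 6.72 and 6.76 on the null arrays and at 7.19, 7.28 and 7.25 on the wild type P3 arrays, and fell by 0.47 (SE 0.04, adjusted p = 0.00819). Exo1, a nuclease of mismatch repair and end resection, fell by 0.66 (SE 0.08, adjusted p = 0.0185), and Mre11a of the break sensor complex by 0.26 (SE 0.03, adjusted p = 0.0237). Polb, the polymerase of base excision repair, differed the other way, by 0.46 (SE 0.08, adjusted p = 0.0616), which did not pass, while a dimmer probe-set rose by 0.51 (SE 0.08, adjusted p = 0.0455).

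Target genes of p53 leaned upward. Of 32, 3 rose, 0 fell and 29 did not pass, with a median of 0.19 and 26 differences above 0. Fas, a death receptor, was at 7.05, 7.34 and 7.55 in the null and at 6.38, 6.39 and 6.12 in wild type P3, and rose by 1.01 (SE 0.14, adjusted p = 0.0309). Every null array lay above every wild type one, as in every rise that passed the test. Eda2r, a receptor of the same superfamily, rose by 0.37 (SE 0.06, adjusted p = 0.035), and Gadd45a, a stress gene of DNA damage and growth arrest, by 0.62 (SE 0.10, adjusted p = 0.0469). These calls were kept in 6, 6 and 4 of 17 alternative settings. Mdm2, the ubiquitin ligase that holds p53 down, was at 9.84, 10.24 and 10.39 in the null and at 9.73, 9.85 and 9.61 in wild type P3 and did not pass (adjusted p = 0.336).

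Of 34 genes of the endoplasmic reticulum stress response, 3 rose, 0 fell and 31 did not pass (median 0.09). Herpud1, a part of the machinery that removes misfolded proteins, was at 10.02, 9.78 and 10.01 on the null arrays and at 9.25, 9.29 and 9.20 on the wild type P3 arrays, and rose by 0.69 (SE 0.07, adjusted p = 0.0123). Ddit3, the transcription factor CHOP, was at 9.52, 9.46 and 9.36 in the null and at 8.69, 8.54 and 8.90 in wild type P3 and rose by 0.73 (SE 0.10, adjusted p = 0.0248). Sel1l, a partner of the same removal machinery, rose by 0.38 (SE 0.04, adjusted p = 0.0146). The chaperone Hspa5 and the regulator Atf4, both central to this response, differed by 0.07 and -0.03 (adjusted p = 0.805 and 1).

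Of 18 TALE homeobox genes and partners of Tgif1, 0 rose and 0 fell by limma's test of the null against wild type P3, and an unadjusted p under 0.05 was given upward for 2 and downward for 4. The family member nearest to Tgif1, Tgif2, was at 9.50, 9.07 and 9.18 in the null and at 8.61, 8.44 and 8.60 in wild type P3. Every null array was thus above every wild type one, and the difference of 0.70 (SE 0.14) did not pass (adjusted p = 0.0784). Groups lay apart in 1 direction or the other for 24.6% of the 18238 probe-sets. The corepressor gene Hdac1 differed by -0.44 (SE 0.13, adjusted p = 0.22) and Ctbp1 by -0.09 (SE 0.02, adjusted p = 0.164).

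Of the genes of the TGFβ and BMP pathways themselves, few passed. Of 46 ligands, receptors, Smads and regulators, 1 rose, 0 fell and 45 did not pass, with a median of 0.02. The gene that rose was Ltbp1, which stores latent TGFβ in the matrix. By its brightest probe-set, the null arrays were at 12.09, 12.26 and 12.30 and the wild type P3 arrays at 11.70, 11.71 and 11.60. It rose by 0.54 (SE 0.06, adjusted p = 0.0145), while its dimmer probe-sets differed by -0.08 and 0.19 and did not pass. Among ligands, Tgfb2 was at 9.64, 9.64 and 9.64 in the null and at 9.25, 9.35 and 8.95 in wild type P3. Inhba was at 12.61, 12.69 and 12.76 in the null and at 12.15, 12.46 and 12.12 in wild type P3. Neither passed (adjusted p = 0.136 and 0.144). The dimmer probe-sets of Tgfb2 differed by 0.52, 0.59 and 0.69 and did not pass either (adjusted p = 0.055, 0.463 and 0.0751). Tgfb1 scattered within both groups, at 7.29, 6.30 and 6.09 in the null and at 6.59, 5.59 and 6.50 in wild type P3, and the groups overlapped. The receptor genes Tgfbr1 and Tgfbr2 differed by -0.21 and -0.11 (adjusted p = 0.384 and 1). Smad2, Smad3 and Smad4, which carry the signal to the nucleus, differed by -0.06, 0.01 and -0.01.

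Genes that TGFβ induces were shifted upward by little. Of 42, 2 rose, 0 fell and 40 did not pass, with a median of 0.15, and 30 differences were above 0. The mean shift of the list was 0.20, 0.09 and 0.12 on the null arrays and between -0.05 and 0.04 on the wild type P3 arrays. Bhlhe40, a circadian and stress repressor, rose by 0.51 (SE 0.08, adjusted p = 0.0497), and the adhesion molecule Ncam1 by 0.58 (SE 0.08, adjusted p = 0.0329), calls kept in 6 and 5 of 17 alternative settings. Acta2, smooth muscle actin, was at 14.95, 14.96 and 14.94 in the null and at 14.82, 14.89 and 14.82 in wild type P3, and Ccn2, a matricellular growth factor, at 14.72, 14.75 and 14.87 in the null and at 14.44, 14.50 and 14.38 in wild type P3. Neither Acta2 nor Ccn2 passed (adjusted p = 0.0531 and 0.0612), although their groups did not overlap. The same lack of overlap was found for 24.6% of the 18238 probe-sets. The feedback inhibitors Smad7 and Skil differed by 0.22 (adjusted p = 0.6) and 0.04 (adjusted p = 0.99) by their brightest probe-sets. A dimmer probe-set of Skil differed by 0.52 (SE 0.13) and did not pass (adjusted p = 0.163).

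Regulators of the actin cytoskeleton rose in part. Of 57, 7 rose (12.3%), 0 fell and 50 did not pass, with a median of 0.10. Iqgap2, a scaffold of actin and calmodulin, was at 8.86, 8.88 and 8.82 on the null arrays and at 7.74, 7.77 and 7.75 on the wild type P3 arrays, and rose by 1.10 (SE 0.02, adjusted p = 2.71e-05), with 6.15 at P5. Limk2, a kinase that inactivates the actin-severing protein cofilin, was at 8.91, 8.89 and 9.12 in the null and at 7.72, 7.70 and 7.56 in wild type P3 and rose by 1.32 (SE 0.11, adjusted p = 0.00735). Arpc2, a subunit of the complex that branches actin filaments, rose by 0.23 (SE 0.02, adjusted p = 0.00943) from a high level, 13.85, 13.86 and 13.88 in wild type P3. Coro1a, an actin-binding protein of blood cells that the macrophage list holds too, rose by 1.82 (SE 0.24, adjusted p = 0.0237). The count of 7 was 3 without wild type P3 replicate 1, 3 on the 6 arrays alone and 2 with the robust prior. Of 22 genes of smooth muscle and myofibroblasts, 2 rose, 0 fell and 20 did not pass, and all 22 differences were above 0, with a median of 0.21. Des, the intermediate filament of muscle, was at 8.47, 8.21 and 7.85 in the null and at 7.27, 6.86 and 7.14 in wild type P3 and rose by 1.09 (SE 0.17, adjusted p = 0.044), a call kept in 5 of 17 alternative settings.

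Matrix genes changed in small numbers and in both directions. Of 53 collagens and collagen-modifying genes 4 rose and 0 fell (median 0.06), and the 4 were not collagen chains. Cthrc1, a secreted protein of repairing tissue, was at 13.21, 12.65 and 12.67 on the null arrays and at 11.71, 11.68 and 11.54 on the wild type P3 arrays, with null replicate 1 the highest, and rose by 1.20 (SE 0.18, adjusted p = 0.035). The prolyl hydroxylases P4ha2 and P3h2 rose by 0.41 (SE 0.05, adjusted p = 0.0156) and 0.73 (SE 0.10, adjusted p = 0.0305), and Pcolce2, an enhancer of procollagen processing, by 0.45 (SE 0.07, adjusted p = 0.0369). The main chain of collagen I, Col1a1, was at 13.49, 12.49 and 12.50 in the null and at 12.71, 12.19 and 12.59 in wild type P3, with overlapping groups. Of 66 other matrix genes, 2 rose and 3 fell. Ntn4, a netrin of basement membranes, was at 5.38, 5.44 and 5.37 in the null and at 8.48, 8.54 and 8.65 in wild type P3, and fell by 3.16 (SE 0.09, adjusted p = 0.000116). Ccn5, a matricellular protein, fell by 1.41 (SE 0.20, adjusted p = 0.0299), and the proteoglycan Dcn by 0.73 (SE 0.10, adjusted p = 0.0317). Prg4, the lubricin of joints, was at 8.72, 8.79 and 8.86 in the null and at 6.96, 7.07 and 7.38 in wild type P3 and rose by 1.66 (SE 0.16, adjusted p = 0.0113). Coch, a matrix protein known from the inner ear, rose by 1.22 (SE 0.07, adjusted p = 0.00225), and both were kept in at least 15 of 17 alternative settings.

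Of 47 matrix proteases and inhibitors, 5 rose, 1 fell and 41 did not pass (median 0.12). Adamts3, which trims procollagen, was at 4.70, 4.74 and 4.99 on the null arrays and at 2.97, 2.90 and 2.90 on the wild type P3 arrays, near the lowest value, and rose by 1.89 (SE 0.08, adjusted p = 0.000661). The cathepsin Ctsf rose by 1.03 (SE 0.10, adjusted p = 0.0106) and the membrane protease Adam8 by 0.58 (SE 0.06, adjusted p = 0.0148). The remaining 3 that passed in this list are Ctss and Mmp10, which rose, and Mmp16, which fell by 0.72 (SE 0.10, adjusted p = 0.0282).

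Few genes of the Wnt, Hedgehog and retinoid pathways passed. Sfrp2, a secreted Wnt antagonist, was at 8.02, 7.82 and 7.99 on the null arrays and at 9.25, 9.09 and 9.30 on the wild type P3 arrays, and fell by 1.27 (SE 0.17, adjusted p = 0.026). Sfrp1, its relative, was at 5.94, 5.67 and 5.97 in the null and at 7.12, 7.07 and 6.98 in wild type P3 by its brightest probe-set and fell by 1.20 (SE 0.12, adjusted p = 0.0107). For both, every null array lay over 1 log2 unit below every wild type P3 array, and at P5 the pair diverged, with 6.58 ± 0.34 for Sfrp2 and 7.69 ± 0.17 for Sfrp1. The dimmer probe-sets of Sfrp1 differed by only -0.22 and -0.01 and did not pass, so its fall rests on 1 probe-set. The receptor Fzd6 was at 8.08, 7.85 and 8.26 in the null and at 6.88, 7.15 and 6.94 in wild type P3 and rose by 1.08 (SE 0.13, adjusted p = 0.019). Of the 51 Wnt genes measured, these 3 passed, and the median was 0.00. Of 19 Hedgehog genes, 2 fell and 0 rose by the brightest probe-set (median -0.10), while a dimmer one of Disp1, which releases the ligand, rose by 0.82 (SE 0.11, adjusted p = 0.0254). Those that fell were Gas1, at 9.09, 9.25 and 9.18 in the null and 10.13, 10.56 and 10.06 in wild type P3, and Gli2, the main transcriptional activator of the pathway, which fell by 0.58 (SE 0.07, adjusted p = 0.0156). Ptch1, receptor and target of Hedgehog, differed by -0.25 (SE 0.09, adjusted p = 0.386), and the target Gli1 was at the lowest value on all arrays.

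Crabp1, which binds retinoic acid in the cytoplasm, was at 12.79, 12.79 and 12.87 on the null arrays and at 13.76, 13.67 and 13.78 on the wild type P3 arrays. It fell by 0.92 (SE 0.05, adjusted p = 0.00144), a call kept in 17 of 17 alternative settings, and its P5 level of 12.92 ± 0.07 did not pass against the null (adjusted p = 0.307). Rbp4, which carries retinol outside cells, fell by 1.33 (SE 0.09, adjusted p = 0.00424) from a wild type P3 mean of 4.10 ± 0.19 (SD, n = 3), around the threshold of 4, and is not among the 18238. Crabp2 was at 9.31, 8.87 and 9.01 in the null and at 9.91, 9.71 and 9.86 in wild type P3 and did not pass (adjusted p = 0.0589). Of 23 retinoid genes these 2 fell, 0 rose, and the median was 0.03. The receptor Rxrb differed by 0.23 (SE 0.05, adjusted p = 0.0763).

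Other groups changed little. Of 47 subunits of oxidative phosphorylation 1 rose, Cox6a1 of cytochrome c oxidase by 0.13 (SE 0.02, adjusted p = 0.0315), and 0 fell by the brightest probe-set, with differences from -0.20 to 0.25 and a median of -0.01. A dimmer probe-set of Ndufv1, a subunit of complex I, fell by 0.23 (SE 0.04, adjusted p = 0.0365). Of 34 ribosomal protein genes 1 fell and 0 rose (median -0.02). That gene, Rps6 of the small subunit, was at 9.21, 9.23 and 9.27 on the null arrays and at 10.14, 10.05 and 10.25 on the wild type P3 arrays, and fell by 0.91 (SE 0.06, adjusted p = 0.00355). Ribosomal protein genes have many near-identical pseudogene copies, so which copies this probe-set reads is uncertain. Ligands and receptors of the FGF, PDGF, EGF and VEGF families had 0 of 45 calls in either direction by limma on the brightest probe-sets, with an unadjusted p under 0.05 upward for 5 and downward for 2. Of these, Pdgfrb, at 12.45, 12.18 and 12.20 in the null and at 11.78, 11.88 and 11.75 in wild type P3, came nearest (adjusted p = 0.0562). Dimmer probe-sets of Csf1r, Flt1, Vegfc and Egfr rose, by 1.18, 0.96, 0.53 and 0.48 (adjusted p = 0.00561, 0.0412, 0.0167 and 0.0469). Of 34 immediate early genes, Fos alone passed, and fell by 0.32 (SE 0.05, adjusted p = 0.0469). Of 33 Hox genes, Hoxb9 and Hoxa5 rose by 0.37 (SE 0.04, adjusted p = 0.0107) and 0.52 (SE 0.07, adjusted p = 0.0218). Of 26 imprinted genes, the amino acid transporter Slc38a4 rose by 0.40 (SE 0.05, adjusted p = 0.0156) and Dcn fell. A second probe-set of Slc38a4 differed by 0.16 and did not pass. Of 37 interferon response genes 1 rose, the viral RNA sensor Ddx58 (RIG-I), which was at 7.46, 7.61 and 7.53 in the null and at 6.75, 6.68 and 6.81 in wild type P3 and rose by 0.79 (SE 0.05, adjusted p = 0.00263), with 16 of 17 alternative settings keeping its call.

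Lipid genes held larger changes in few members. Of 43, 3 rose and 0 fell (median -0.03). Mgll, which splits monoacylglycerols and ends endocannabinoid signals, was at 8.66, 7.89 and 7.96 on the null arrays and at 6.31, 5.92 and 6.39 on the wild type P3 arrays, and rose by 1.97 (SE 0.25, adjusted p = 0.0222). Olr1, a receptor for oxidised lipoprotein, was at 8.33, 7.77 and 7.98 in the null and at 6.54, 6.44 and 6.42 in wild type P3 and rose by 1.56 (SE 0.19, adjusted p = 0.0212). Plin2, the coat of lipid droplets, rose by 0.45 (SE 0.06, adjusted p = 0.0249).

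The rest of the lists held few calls. Of 51 adhesion molecules, 3 rose (Jam2, Ncam1 and Itga8) and 2 fell (Cdh13 and Cd34), and the median was 0.00. Of 39 apoptosis genes, 3 rose and 0 fell (median 0.00): Cflar, which blocks death receptor signals, rose by 0.66 (SE 0.05, adjusted p = 0.00524), beside Fas and Tnfrsf21. Of 36 lysosomal genes, Smpd1, an acid sphingomyelinase, and Ctsf, above 4 on the null arrays alone, rose and the sulfatase Arsb fell (median 0.04). Of 40 chemokines and secreted inflammatory factors, Tslp rose and Cxcl5 fell (median 0.00). Of 19 IGF genes, the protease Pappa rose by 0.59 (SE 0.09, adjusted p = 0.0379) (median 0.05). The brightest probe-set of Igfbp4 differed by -0.89 and did not pass, while a dimmer one fell by 1.04 (SE 0.16, adjusted p = 0.0358). Of 40 antioxidant genes, Gss, which makes glutathione, rose by 0.43 (SE 0.05, adjusted p = 0.0151) (median -0.03). Of 34 glycolysis and hypoxia genes P4ha2 alone passed, and of 50 semaphorins, plexins and ephrins Sema5a alone did. Of 27 cartilage and bone markers Prg4 alone rose, while the cartilage collagen genes Col10a1, at 6.65, 5.82 and 5.67 in the null and 4.72, 4.24 and 4.27 in wild type P3, and Col2a1, at 11.98, 11.55 and 11.44 in the null and at 10.65, 10.33 and 10.73 in wild type P3, did not pass (adjusted p = 0.0537 and 0.0808). Of 23 neural markers Ncam1 rose and Penk and Rims2 fell. Of 4 genes of X inactivation and the Y chromosome 0 passed by limma, with an unadjusted p under 0.05 downward for 1.

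The 10 brightest genes with a call and a difference of at least 0.5, each taken once, show which abundant transcripts moved. Cthrc1 and Crabp1, described above, had the largest differences among them. Cryab, a small heat shock chaperone, was at 12.72, 13.00 and 12.85 on the null arrays and at 12.14, 12.11 and 12.29 on the wild type P3 arrays, and rose by 0.68 (SE 0.09, adjusted p = 0.023). Plpp1, which dephosphorylates lipid messengers, rose by 0.70 (SE 0.07, adjusted p = 0.0103), and Gsn, the actin-severing gelsolin, rose by 0.52 (SE 0.04, adjusted p = 0.00524), with all 5 of its probe-sets above the threshold rising, by 0.26 to 0.52. Fnta, the shared subunit of the enzymes that attach prenyl lipids, and Nars, the asparaginyl-tRNA synthetase, rose by 0.52 (SE 0.05, adjusted p = 0.0105) and 0.51 (SE 0.07, adjusted p = 0.0254). A second probe-set of Nars, with means of 11.84 in the null and 11.78 in wild type P3, differed by 0.06 and did not pass. Hmgb2 and H2az1, chromatin proteins abundant in dividing cells, fell: Hmgb2 was at 11.62, 11.53 and 11.59 in the null and at 12.08, 12.02 and 12.22 in wild type P3 and fell by 0.53 (SE 0.06, adjusted p = 0.0156), and H2az1 fell by 0.51 (SE 0.06, adjusted p = 0.0227). Ltbp1 completes the group.

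The study measured a panel of genes by quantitative PCR, with values not analysed here. On the array, 23 genes of the panel were read, of which 7 rose (Cflar, Herpud1, Olr1, Mgll, Rasl11b, P3h2 and Fas), 7 fell (Plk4, Bub1b, Rfc5, Gas1, Cdc25b, Pole and Enpep), and 9 did not pass. The panel belongs to a study of these same samples, and its counts are no independent evidence. Cdc25b, a phosphatase that starts mitosis, was at 6.40, 6.64 and 6.57 in the null and at 7.21, 7.30 and 7.30 in wild type P3, and fell by 0.73 (SE 0.10, adjusted p = 0.0304). Enpep, an aminopeptidase that cleaves angiotensin, fell by 1.14 (SE 0.18, adjusted p = 0.0446), and Rasl11b, a small GTPase, rose by 1.46 (SE 0.19, adjusted p = 0.0232). Without wild type P3 replicate 1, 1 of these genes rose, and without null replicate 2, 0 fell, by the same test.

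Markers of other cell types were not equal between the groups. The macrophage gene Itgam, the mast cell gene Kit and the endothelial gene Pecam1 were at or near the lowest value, while some pericyte, neural and cartilage markers, such as Cspg4, Ncam1 and Col2a1, were bright in both genotypes. Among 40 genes that mark macrophages, 4 rose and 0 fell, and the median was 0.32. Their summed linear signal was 3115, 2224 and 2403 on null replicates 1 to 3 and 1480 to 1540 on the wild type P3 arrays. Among them, 20 were not above 4 on any null array and 27 not on any wild type P3 array, and Itgam, Ptprc and Spi1 lay between 2.23 and 2.36 on all 6 arrays. Csf1r, the receptor that macrophages need to live, was at 7.36, 6.38 and 6.76 in the null and at 5.37, 4.43 and 5.46 in wild type P3 by its brightest probe-set and did not pass (adjusted p = 0.0808), while a dimmer one, with means of 4.68 and 3.51, rose by 1.18 (SE 0.09, adjusted p = 0.00561). The 4 that rose were Coro1a, Mpeg1, the cathepsin Ctss, by 1.89 (SE 0.17, adjusted p = 0.00977), and the lectin Clec4d, by 1.61 (SE 0.19, adjusted p = 0.0192). The sarcomere genes shifted along with the macrophage list, both most on null replicate 1, and what part either has in other differences was not tested. Without null replicate 1, 342 probe-sets rose and 241 fell in all.

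Pericyte markers rose in 3 of 10 genes, 0 fell, and the median was 0.23. Their summed linear signal was 7864 to 9385 on the null arrays and 5700 to 5835 on the wild type P3 arrays. Rgs5, a regulator of G protein signals in pericytes, was at 8.90, 8.57 and 8.65 in the null and at 7.25, 7.46 and 7.11 in wild type P3 by its brighter probe-set and rose by 1.43 (SE 0.20, adjusted p = 0.0271), and Cspg4 (NG2) rose by 0.64 (SE 0.09, adjusted p = 0.0282), beside Des. Of 29 endothelial markers 1 rose, Ecscr, and 2 fell, Aqp1 and Apln (median 0.00), and the defining genes Pecam1 and Cdh5 lay between 2.23 and 2.26 on every array. Of 22 epithelial and mesothelial markers 3 fell and 0 rose (median 0.00): Krt7, a keratin filament gene, fell by 0.72 (SE 0.08, adjusted p = 0.0143) and the membrane linker Ezr by 0.84 (SE 0.12, adjusted p = 0.0296), beside Wfdc2. Their summed signal was 3477 to 4117 on the null and 4341 to 4447 on the wild type P3 arrays. Of 15 mast cell markers Tph1 alone passed. It makes the precursor of serotonin, was at 5.66, 5.15 and 5.39 in the null and at 3.25, 3.30 and 3.30 in wild type P3, and rose by 2.11 (SE 0.12, adjusted p = 0.00224), while Kit, Cpa3 and Cma1 were at 2.23 on all 6 arrays. The fibroblast markers had 0 rises and 2 falls among 24, Cd34 by 1.07 (SE 0.15, adjusted p = 0.0305) and Dcn, and a median of -0.13. The summed signal of that list overlapped between the groups. The part of these shifts in the differences of other genes was not tested.

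**Figure D4:**
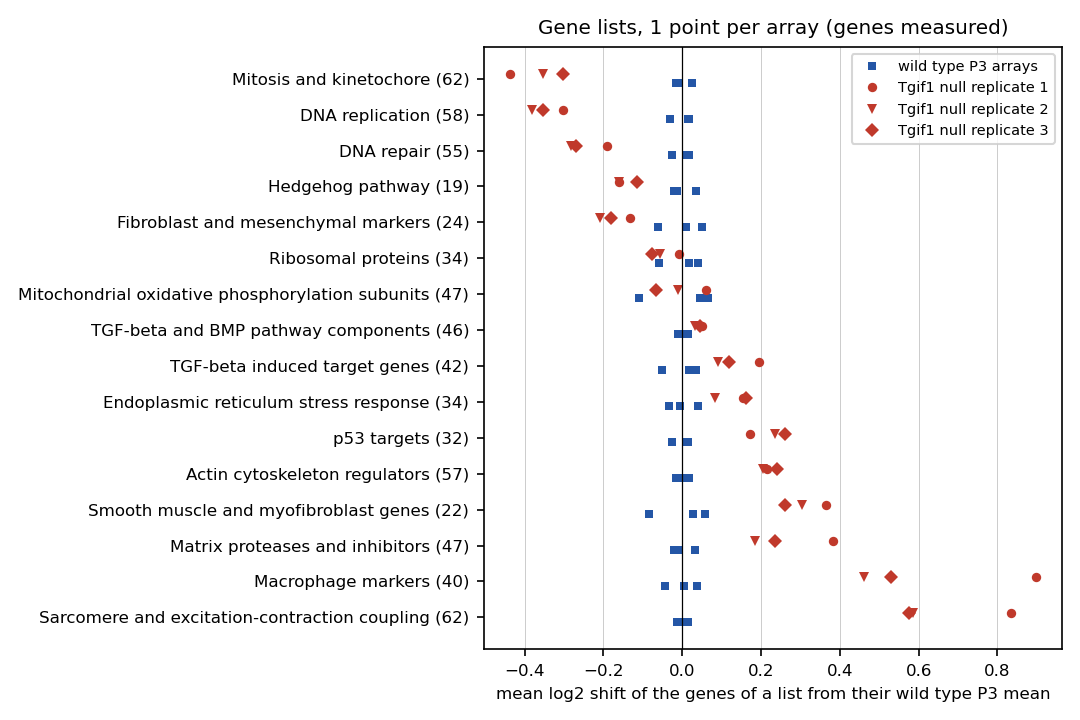
Mean log2 shift, over all genes of a list on the array, of each P3 array from the wild type P3 mean, for 16 lists with the number of genes in brackets; red symbols are the null replicates and blue squares the wild type P3 replicates. Mitosis and replication genes lie between -0.30 and -0.44 on the null arrays, macrophage and sarcomere genes lie above 0.4 with null replicate 1 at 0.90 and 0.83, and oxidative phosphorylation and ribosomal genes overlap the wild type arrays.

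Genes beside Tgif1 on chromosome 17 were looked at by their order. Of the 25 genes on either side, 17 were measured and 10 of these were above the threshold. Apart from Myom1, none passed, and their differences lay between -0.57 and 0.06. Emilin2, a matrix glycoprotein, was the lowest, at -0.57 (SE 0.13, adjusted p = 0.116). Myom1, which encodes the M-band protein myomesin of the sarcomere and lies 11 genes away, was at 4.66, 4.24 and 4.29 on the null arrays and at 3.04, 3.02 and 3.19 on the wild type P3 arrays, where it is near the lowest value. It rose by 1.31 (SE 0.18, adjusted p = 0.0293), and its P5 level was 5.44 ± 0.32. This gene stands in the sarcomere list as well. Over whole autosomes, the share of genes with a call by any probe-set above the threshold ran from 3.12% on chromosome 12 to 8.87% on chromosome 1. It was 5.41% on chromosome 17, and 563 of the 9938 genes had such a call in all. Why these shares differ was not tested.

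**Figure D5:**
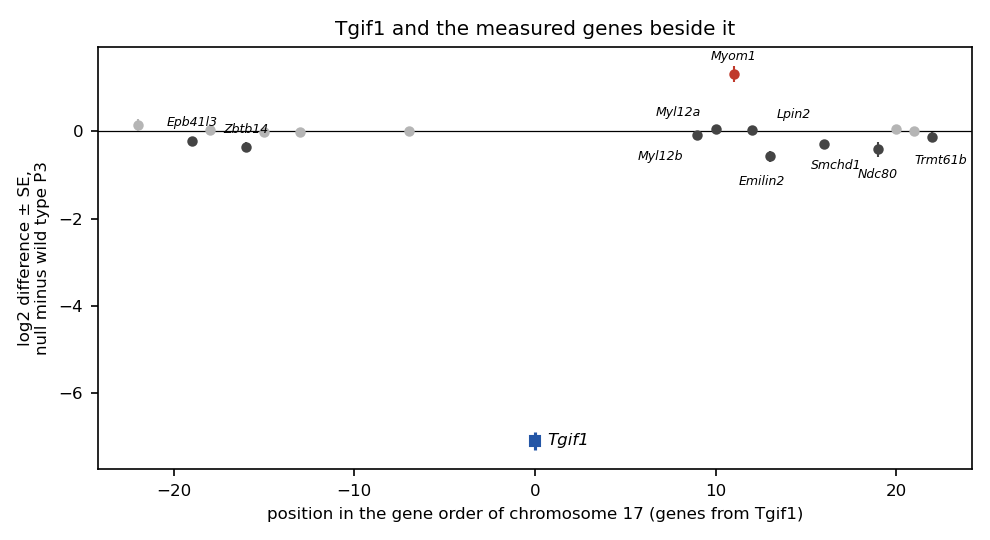
Log2 difference of the null from wild type P3, with its SE, for Tgif1 (blue square) and the 17 measured genes among the 25 on either side of it, placed by their order on chromosome 17; grey points were not above the threshold, and red marks the gene that passed. Tgif1 is at -7.10, Myom1 at 1.31, and all others lie between -0.57 and 0.14.

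A gene can be read by several probe-sets, and these did not always agree. Of 563 genes with a call, 262 had 1 probe-set above the threshold and 301 had several. All of them passed in the same direction for 33 of the 301, while for 267 only some passed, of which 231 had differences of 1 sign throughout. In 1 gene, the copper transporter Atp7a, 1 probe-set rose by 0.35 and the other fell by 1.42. The probe-sets of Ikbip, a target of p53, disagreed: the dimmest fell by 2.03 (SE 0.14, adjusted p = 0.00436), and the others differed by -0.28 and 0.35 (adjusted p = 0.108 and 0.0855). The dim probe-set of Dph5 fell by 1.99 and that of Zcchc3 fell by 1.78, while the bright ones differed by 0.05 and 0.15 (adjusted p = 1 for both). In contrast, 3 of the 5 probe-sets of Zdhhc14, a palmitoyl transferase, rose, by 1.44 to 2.30, and the other 2 differed by 0.43 and 1.45.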

How the data were processed

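RNA from 9 MEF cultures was hybridised to Affymetrix MOE430 2.0 arrays, with 3 arrays each for Tgif1 null P3, wild type P3 and wild type P5. The authors deposited log2 signals of 45101 probe-sets, normalised together by GCRMA, which corrects for background and probe sequence and gives dim probe-sets a common low value, so that differences near it are compressed or enlarged and have little meaning in size. Deposited values were used without further normalisation. Platform annotation named 34958 probe-sets with 1 gene, 932 with several and 9211 with none, and a gene was read in its list by its brightest probe-set.

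The means of the 3 groups were fitted by limma 3.58.1 in R 4.3.3 over all 9 arrays, with the default empirical Bayes prior, and p-values of the null against wild type P3 were adjusted by Benjamini-Hochberg over 45101 probe-sets. The fit was tested on simulated data. SE is that of the log2 difference. Genes are named by these rules: the 15 largest increases and decreases, the 10 brightest genes with a call and a difference of at least 0.5, up to 4 of each list with the smallest p, the quantitative PCR panel, and Tgif1 with its neighbours that passed. Members of lists outside these rules are named as well-known examples, or because few of a list passed, and were chosen after their values were seen. Membership, rules and lists were chosen with earlier results of these data known. Alternatives were the 6 P3 arrays alone, filters before the fit, another prior, quantile normalisation, median centring, a replicate block, another call rule, each array left out, and the mean of a gene's probe-sets. No column of the authors' own comparisons was used.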

Additional observations from a re-analysis of the deposited data

How the results depend on the processing

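Against 393 higher and 292 lower probe-sets, 75 and 42 passed with the 6 P3 arrays alone, 877 and 688 with only the 18238 in the fit, 810 and 643 with a filter at a log2 signal above 6, and 34 and 23 with the robust prior. Median centring gave 588 higher and 505 lower, and quantile normalisation, at 386 and 315, stayed within 1.5 times. An unadjusted p under 0.0001 with a difference of at least 0.5 gave 103 and 69. With 1 array left out, the counts ran from 117 to 342 higher and from 88 to 294 lower, the lowest without wild type P3 replicate 1. The filters changed the number tested and the prior, which had 2.4 degrees of freedom with only the 18238 in the fit against 0.345, and the causes were not tested. Replicate numbers did not pair the samples: the deviations of same-numbered null and wild type P3 arrays correlated at 0.395, 0.198 and -0.488, and with the replicate number as a block 77 rose and 62 fell. Of the 685 called probe-sets, 99 still passed with the 6 arrays alone, 57 with the robust prior, 136 with the block and 192 to 415 with an array left out. Of 124 called probe-sets among the named genes, 13 kept their call under all alternatives run, the fewest kept was 3 of 17 (Cox6a1), and 0 changed direction while called. Signals near the lowest value limit the size of a difference.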
